A study of Rattus norvegicus with 18 samples.

Results

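The enzymes described here attach a polar group to drugs, plant compounds, bilirubin and hormones in rat liver: the UDP-glucuronosyltransferases (Ugt), the cytosolic sulfotransferases (Sult) and the glutathione transferases (Gst). All genes whose symbol starts with Ugt, Sult or Gst followed by a family number or a class letter and number were taken, which gave 41 of the 33657 genes in the expression table: 7 Ugt, 12 Sult and 22 Gst. Of these, 28 reached a mean of at least 1 FPKM (fragments scaled to gene length and to a total per library) in at least 1 group, and 13 stayed under it in all 6 groups. Liver RNA of male rats, labelled as 18 weeks old, was sequenced in 18 libraries, 3 per group. An obese group given orlistat, a lipase inhibitor, served as the positive control. An obese control was given water, and 3 obese groups received plantain at a low, a medium or a high dose. A normal control, labelled as healthy, was also given water. The labels give neither strain nor genotype, neither the diet nor the way in which obesity arose, and no amounts for the doses. Whether each library is its own animal is not stated either, so the p-values below speak of the spread among libraries only, and some of that spread may be technical.

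Conjugation is the second phase of drug metabolism: it usually follows an oxidation and makes a compound soluble enough to leave in bile or urine. Ugt enzymes sit in the endoplasmic reticulum and use UDP-glucuronate, made from UDP-glucose. Sult enzymes are cytosolic and use the activated sulfate donor PAPS. Gst enzymes join glutathione to electrophiles, and several also reduce peroxides or bind bile pigments and steroids. In rodent liver many of these genes respond to nuclear receptors, to the aryl hydrocarbon receptor and to the oxidant sensor NRF2, and several differ between the sexes through growth hormone.

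The reads behind the FPKM could be recovered as whole numbers and came to 16598744 to 26202811 per library. Albumin, the main secreted protein of hepatocytes, took 10.5% to 12.5% of them, and all 7 hepatocyte markers entered the tests, against 2 of 6 bile duct markers and 1 of 4 markers of intestine or kidney. The hepatocyte markers summed to 77183 to 82987 FPKM with orlistat, 94006 to 96338 FPKM in the obese control, 86658 to 91360, 86967 to 91484 and 85948 to 86213 FPKM at the low, medium and high dose and 83227 to 88660 FPKM in the normal control. Of the 7, 5 were called higher and 1 lower in the obese against the normal control, and 2 higher and 5 lower with orlistat, 1 and 2 at the low dose, 2 and 5 at the medium dose and 2 and 4 at the high dose, each against the obese control. Mitochondrial genes took 5.50% to 5.97% of reads with orlistat, 7.86% to 8.38% in the obese control, 6.73% to 7.30%, 6.26% to 6.95% and 4.59% to 4.70% at the 3 doses and 6.20% to 6.65% in the normal control. The part of both in the members' differences was not tested. The sums of all FPKM values were 531108 to 549373 in the orlistat libraries, 600174 to 609662 in the obese control, 582062 to 594638 at the low dose, 552756 to 582556 at the medium dose, 532688 to 535471 at the high dose and 549488 to 561499 in the normal control. These sums do not overlap between the obese control and the other groups. Rescaling each library to the same sum (TPM) therefore shifted the median log2 difference of all genes tested. The shift was -0.11 in the obese against the normal control. Against the obese control it was 0.15 for orlistat, 0.038 for the low dose, 0.082 for the medium dose and 0.15 for the high one, and it was 0.12 for the high against the low dose. Differences of about this size hang on the scaling, and the counts of members called are given below with both scalings. The library total used for the FPKM averaged 1.036 times the recovered reads with orlistat and 0.974 times in the obese control. It averaged 0.977, 1.014 and 1.028 times at the low, medium and high dose and 1.008 times in the normal control. The median for orlistat was 0.14 under TPM. It was -0.0078 in FPKM, 0.0041 with quantile normalization and -0.0102 in a test of the recovered reads. TPM stood apart in this way in all 6 pairwise comparisons. Which scaling is right was not tested.

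The promoters of 5 members are printed, to show what lies upstream of genes whose levels are followed below: Ugt2b37, Sult1a1 and Gstt3 for their differences between groups, and Gsta2 and Gstp1 because they hold matches to the antioxidant motif. The sequences are from RefSeq, build GRCr8, and run 5′ to 3′ on the gene's strand from 250 bases before the annotated start to 50 bases after it. They cover chr14:21171886-21172185, plus strand for Ugt2b37, chr1:190706063-190706362, minus strand for Sult1a1, chr20:12874368-12874667, plus strand for Gstt3, chr8:88077043-88077342, minus strand for Gsta2 and chr1:210769656-210769955, minus strand for Gstp1. Capitals mark matches to the motifs described after the sequences.
Ugt2b37: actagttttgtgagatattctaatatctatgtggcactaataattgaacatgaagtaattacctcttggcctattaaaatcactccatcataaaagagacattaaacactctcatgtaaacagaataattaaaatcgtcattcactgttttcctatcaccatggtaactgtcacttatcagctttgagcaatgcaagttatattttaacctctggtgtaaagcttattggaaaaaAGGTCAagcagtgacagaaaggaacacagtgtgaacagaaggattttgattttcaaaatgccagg
Sult1a1: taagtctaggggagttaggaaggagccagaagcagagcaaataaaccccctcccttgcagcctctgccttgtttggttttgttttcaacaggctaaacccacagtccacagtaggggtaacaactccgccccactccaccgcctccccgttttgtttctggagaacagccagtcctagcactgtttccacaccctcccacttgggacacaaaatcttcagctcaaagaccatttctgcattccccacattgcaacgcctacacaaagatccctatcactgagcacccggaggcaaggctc
Gstt3: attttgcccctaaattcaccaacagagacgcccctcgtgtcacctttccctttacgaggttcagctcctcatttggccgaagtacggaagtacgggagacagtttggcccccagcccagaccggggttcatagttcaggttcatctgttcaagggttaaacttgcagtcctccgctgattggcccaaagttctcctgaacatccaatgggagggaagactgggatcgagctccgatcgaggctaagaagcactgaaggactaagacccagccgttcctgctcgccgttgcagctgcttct
Gsta2: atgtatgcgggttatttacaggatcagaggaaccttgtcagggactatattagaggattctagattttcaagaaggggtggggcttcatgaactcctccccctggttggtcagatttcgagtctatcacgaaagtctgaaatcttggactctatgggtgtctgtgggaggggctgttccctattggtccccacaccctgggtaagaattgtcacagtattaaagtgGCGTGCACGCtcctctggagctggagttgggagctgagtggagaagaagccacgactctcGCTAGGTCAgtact
Gstp1: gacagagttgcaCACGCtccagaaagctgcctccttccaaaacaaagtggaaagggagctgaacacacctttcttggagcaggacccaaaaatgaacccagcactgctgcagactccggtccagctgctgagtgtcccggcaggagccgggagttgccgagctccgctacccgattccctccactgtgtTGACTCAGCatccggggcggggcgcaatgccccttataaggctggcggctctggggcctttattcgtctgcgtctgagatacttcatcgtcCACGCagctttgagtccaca

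A promoter with the same symbol, chromosome and strand was found for 32 of the 41 members, 23 of them expressed. Both strands were searched for 5 motifs, and the same search was run over 33469 RefSeq promoters of that length. The core of the antioxidant response element (TGACNNNGC) was present in Gsta2, Gsta3, Gstp1 and Gstz1, 4 of the 23 expressed members, against 12.1% of all promoters. The core of the xenobiotic response element (GCGTG) was present in 6 of 23 members (Gsta2, Gsta3, Gsta4, Gsta6, Gstm4 and Gstp1), against 29.7%. The nuclear receptor half-site (AGGTCA) was present in 6 of 23 (Gsta2, Gsta6, Gstm1, Sult1e1, Ugt2a3 and Ugt2b37), against 16.2%. The E-box (CACGTG) was found in Gsto1 alone, 1 of 23, against 6.42%, and the D-box (TTATGTAA) in Gsta3 alone, 1 of 23, against 0.893%. In Gsta2 the antioxidant core and the half-site overlap, and both lie within the bases after the start. The windows of Sult1a1 and Gstt3 hold none of these letters. A match is a description of the sequence, and a window without one says nothing about a factor.

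In the liver of these rats the Sult and Gst families were expressed at similar summed levels and the Ugt family at less. A few members dominated each family. Sult1e1, the estrogen sulfotransferase, had the highest mean of all members at 945 FPKM over the 18 libraries, and gave 43.8% to 51.0% of the Sult sum in the group means. Sult1a1, the main phenol sulfotransferase, followed at 437 FPKM and Sult2a2, of the subfamily that sulfates hydroxysteroids and bile acids, at 209 FPKM. Gstm1, of the mu class, led the Gst family at 830 FPKM, before Gsta5 of the alpha class at 356 FPKM, Gstm2 at 259 FPKM and Gstz1 at 206 FPKM. Gstz1 is also the maleylacetoacetate isomerase of tyrosine breakdown. Ugt2b35 and Ugt2b37 led the Ugt family at 334 and 297 FPKM, and Ugt1a1, the enzyme of bilirubin glucuronidation, had 47.1 FPKM. At the low end of the expressed members were Sult1c2 at 1.80 FPKM, Gsta3 at 3.66 FPKM, Gsta6 at 5.43 FPKM, Gstm3l at 6.22 FPKM and Ugt2a3 at 6.75 FPKM.

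**Figure D1:**
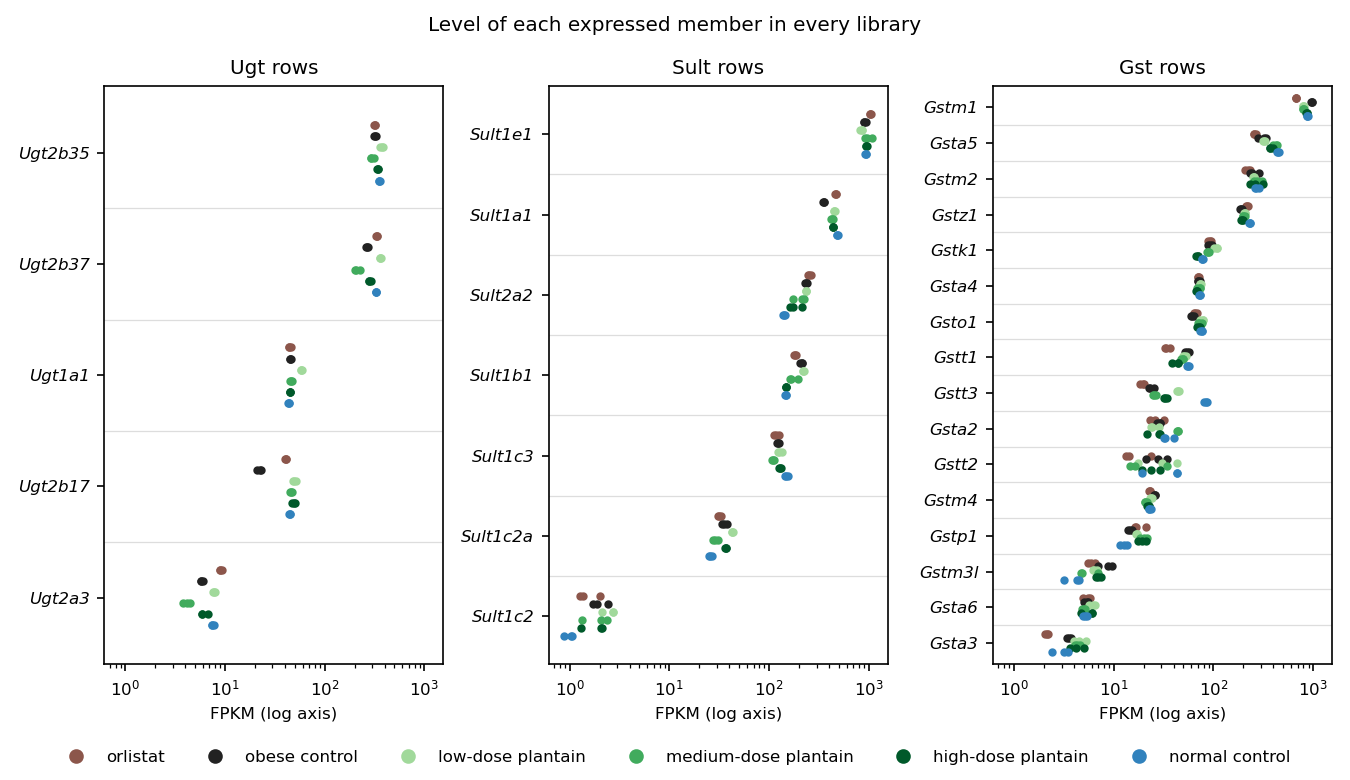
FPKM of the 28 expressed members on a log axis, with 1 dot for each of the 18 libraries, coloured by group. Sult1e1, with library values of 818 to 1083 FPKM, and Gstm1, with 667 to 973 FPKM, stand at the top, and Sult1c2 and Gsta3 at the bottom.

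The 13 members under 1 FPKM in every group mean were counted as not expressed. They were Ugt3a2, Ugt8, Sult1d1, Sult2b1, Sult4a1, Sult5a1, Sult6b1, Gstm3, Gstm5, Gstm6, Gstm6l, Gsto2 and Gstt4. The brain-type Sult4a1 and Ugt8, the enzyme of galactosylceramide synthesis in myelin, reached group means of at most 0.0980 and 0.0100 FPKM. Ugt3a2, Gstm5 and Gstt4 had no read in any of the 18 libraries, which allows up to 0.139, 0.182 and 0.186 FPKM at 3 reads in the shallowest library, for counting error only. None of the 13 entered the tests, and all 28 others did.

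Some of these genes cannot be read as single enzymes. The Ugt1a1 gene covers 142 kb and is the only Ugt1 gene in the table, so its level may hold other Ugt1a first exons. The Ugt2a3 gene covers 427 kb and overlaps Ugt2b35 and Ugt2b37, and the Sult2a2 gene covers 528 kb and is the only Sult2a gene. Gstm2 overlaps Gstm3l and Gstm6, Gsto1 overlaps Gsto2, and Gsta3 overlaps LOC108348061, described as alpha-3, which had 245 FPKM with orlistat, 360.2 FPKM in the obese control, 397, 252 and 259 FPKM at the low, medium and high dose and 321 FPKM in the normal control. Its SD at the low dose was 76.7 FPKM. The alpha-3 level is thus mostly counted outside Gsta3. Near-identical copies share reads, and how the counting split them, and whether it used strand, is not given in the sources used. In the deposited table, whose genome build is unnamed in the sources, Ugt2a3, Ugt2b17, Ugt2b35, Ugt2b37, Sult1b1 and Sult1e1 lie together on chromosome 14, 4 theta genes on chromosome 20 (Gstt3 at 13817795 to 13825475) and the mu genes, apart from Gstm5, on chromosome 2.

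The summed FPKM of the 7 Ugt genes was 745 ± 3.98 with orlistat, 658 ± 11.8 in the obese control, 852 ± 16.4, 609 ± 26.1 and 721 ± 15.0 at the low, medium and high dose, and 777 ± 2.41 in normal control libraries (all sums as mean ± SD, n = 3). In FPKM the Ugt sum was thus highest at the low dose and lowest at the medium dose, and the libraries of no group overlapped those of another. The 12 Sult genes summed to 2096 ± 36.5 with orlistat, 1870.2 ± 20.7 in the obese control, 1928 ± 26.3, 1941 ± 129 and 1889.9 ± 23.9 at the low, medium and high dose, and 1878 ± 12.6 in the normal control. The Sult sum of the medium dose spread over 1819 to 2077 FPKM and covered the sums of all libraries of the obese control, the low dose, the high dose and the normal control. The 22 Gst genes summed to 1752 ± 15.6 with orlistat, 2144 ± 56.9 in the obese control, 2051 ± 11.5, 2130.2 ± 76.0 and 2096 ± 38.5 at the low, medium and high dose, and 2307 ± 25.3 in the normal control. The orlistat libraries had the lowest Gst sums and the normal control libraries the highest, both apart from all other groups. The family sums were not recomputed under TPM, so the order of the groups and the gaps between them may hang on the scaling. In bulk liver, fewer cells of a type and less RNA per cell cannot be told apart.

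**Figure D2:**
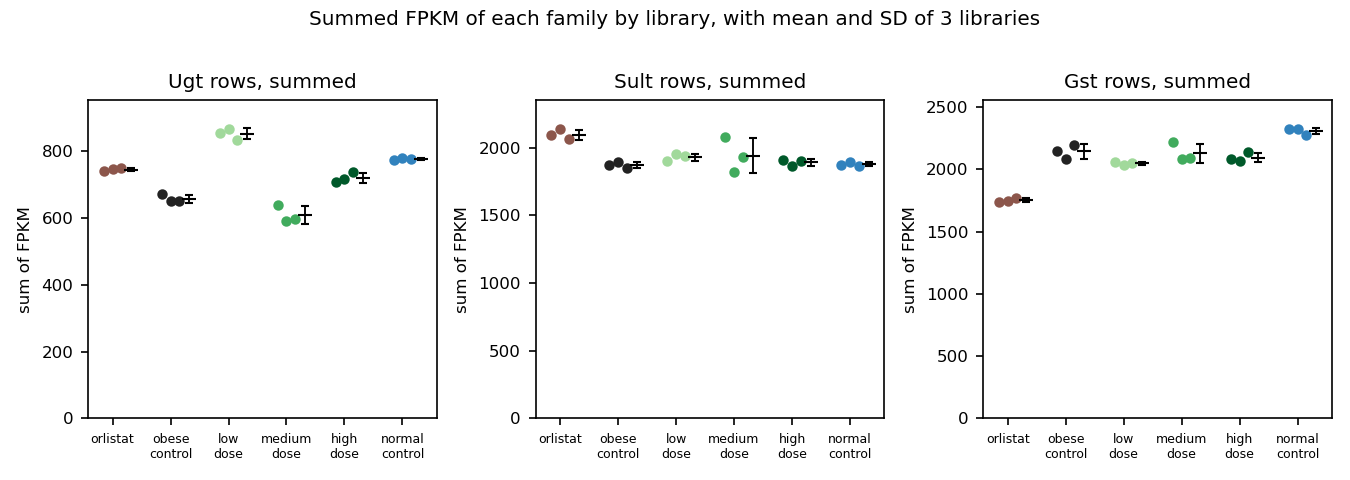
Summed FPKM of the Ugt, Sult and Gst genes in each library (dots), with the mean and SD of 3 libraries beside them, on axes that start at 0. The Ugt sum is highest at the low dose (852 ± 16.4) and the Gst sum lowest with orlistat (1752 ± 15.6).

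Among the Ugt genes, Ugt2b17 separated the obese control from all other groups. This gene, whose human counterpart of the same name conjugates androgens, had 40.6, 40.2 and 41.1 FPKM with orlistat and 22.8, 22.7 and 21.1 FPKM in the obese control. Its values were 52.0, 48.8 and 47.7 FPKM at the low dose, 46.7, 44.8 and 46.0 FPKM at the medium dose and 46.9, 49.3 and 50.7 FPKM at the high dose, with 43.8, 44.4 and 44.5 FPKM in the normal control. The 3 obese control libraries lie at 21.1 to 22.8 FPKM and no other library falls under 40.2 FPKM. Ugt2b37 had 325, 335 and 334 FPKM with orlistat and 272, 259 and 265 FPKM in the obese control. At the low dose it had 359, 369 and 360.4 FPKM, at the medium dose 226, 203 and 209 FPKM and at the high dose 279.9, 275 and 291 FPKM, with 327, 327 and 329.9 FPKM in the normal control. It was highest at the low dose and lowest at the medium dose, and the libraries of orlistat and the normal control overlapped. Ugt2a3, whose human counterpart conjugates bile acids, had 8.86, 9.26 and 8.99 FPKM with orlistat, 5.76, 5.80 and 5.995 FPKM in the obese control, 7.93, 7.59 and 7.78 FPKM at the low dose, 4.48, 3.76 and 4.20 FPKM at the medium dose, 5.88, 5.85 and 6.76 FPKM at the high dose and 7.44, 7.78 and 7.42 FPKM in the normal control. The medium dose libraries were again the lowest.

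Ugt1a1 stood out at a single dose. It had 57.7, 58.3 and 58.9 FPKM at the low dose, 46.8, 45.4 and 46.2 FPKM at the medium dose and 45.2, 45.0 and 45.1 FPKM at the high dose. With orlistat it had 43.4, 45.7 and 43.4 FPKM, in the obese control 45.2, 46.3 and 44.8 FPKM and in the normal control 43.5, 44.3 and 43.1 FPKM. All libraries outside the low dose lie between 43.1 and 46.8 FPKM. Ugt2b35, the highest Ugt gene, moved less: it had 323, 315 and 320.1 FPKM with orlistat, 326, 317 and 314 FPKM in the obese control, 379, 382 and 359 FPKM at the low dose, 315, 295 and 291 FPKM at the medium dose, 331, 339.9 and 344 FPKM at the high dose and 353, 355 and 353 FPKM in the normal control.

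Among the Sult genes, Sult1a1 was lowest in the obese control. It had 465, 467 and 462 FPKM with orlistat, 349.6, 353 and 353 FPKM in the obese control, 452, 451 and 454 FPKM at the low dose, 435, 420.2 and 429 FPKM at the medium dose, 433, 438 and 442 FPKM at the high dose and 486, 485 and 483 FPKM in the normal control. Every library of the other groups lies above the obese control. Sult1b1, which sulfates thyroid hormones, had 181, 185 and 177 FPKM with orlistat, 212, 212 and 204 FPKM in the obese control, 222, 219.6 and 223 FPKM at the low dose, 197, 161 and 168 FPKM at the medium dose, 148, 147 and 149.6 FPKM at the high dose and 144, 149 and 149 FPKM in the normal control. The high dose and the normal control overlap, and both lie under all other libraries. Sult2a2 had 250.1, 265 and 244 FPKM with orlistat, 241, 234 and 229 FPKM in the obese control, 236, 236 and 233 FPKM at the low dose, 214, 175 and 224 FPKM at the medium dose, 212, 164 and 174 FPKM at the high dose and 137, 145 and 142 FPKM in the normal control. Its medium and high dose libraries spread widely and overlap each other.

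Sult1e1 had 1034, 1065 and 1033 FPKM with orlistat, 904, 931 and 899.7 FPKM in the obese control, 818, 863 and 853 FPKM at the low dose, 1083, 925 and 966 FPKM at the medium dose, 944, 947 and 964 FPKM at the high dose and 931, 928 and 921 FPKM in the normal control. The first medium dose library holds the highest value of all 18, and that group overlaps the obese control. Sult1c2a had 31.3, 32.7 and 30.8 FPKM with orlistat, 38.2, 35.1 and 34.1 FPKM in the obese control, 44.0, 43.0 and 42.6 FPKM at the low dose, 31.0, 27.3 and 29.0 FPKM at the medium dose, 37.4, 37.5 and 36.0 FPKM at the high dose and 26.7, 25.2 and 25.8 FPKM in the normal control. Sult1c2 stayed low, with 2.03, 1.36 and 1.28 FPKM with orlistat, 1.703, 2.44 and 1.91 FPKM in the obese control, 2.72, 2.09 and 2.71 FPKM at the low dose, 2.36, 2.06 and 1.32 FPKM at the medium dose, 2.13, 2.08 and 1.29 FPKM at the high dose and 1.06, 0.883 and 1.02 FPKM in the normal control. The normal control libraries of Sult1c2 lie under all others. Group means of Sult1c3 ran from 110.3 FPKM at the medium dose to 149 FPKM in the normal control.

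Among the Gst genes, Gstt3 of the theta class covered the widest range. It had 18.4, 20.1 and 19.6 FPKM with orlistat and 23.0, 25.4 and 22.8 FPKM in the obese control. It had 43.2, 44.9 and 44.2 FPKM at the low dose, 26.3, 24.8 and 25.5 FPKM at the medium dose and 31.8, 32.7 and 33.9 FPKM at the high dose, against 81.4, 85.7 and 83.4 FPKM in the normal control. The normal control stands alone, and the order of the doses is low, high, medium. Its neighbour Gstt1, known for acting on small halogenated compounds, had 33.1, 32.9 and 36.7 FPKM with orlistat, 56.5, 52.0 and 54.4 FPKM in the obese control, 53.4, 49.5 and 50.4 FPKM at the low dose, 49.1, 47.4 and 49.3 FPKM at the medium dose, 44.1, 38.4 and 43.9 FPKM at the high dose and 54.0, 57.3 and 55.6 FPKM in the normal control. The obese and the normal control overlap for Gstt1, and orlistat lies under all other groups. Gstk1, the kappa form of mitochondria and peroxisomes, had 88.5, 94.9 and 92.4 FPKM with orlistat, 97.5, 88.0 and 92.9 FPKM in the obese control, 108, 108 and 102 FPKM at the low dose, 90.4, 88.3 and 86.0 FPKM at the medium dose, 70.1, 67.2 and 70.5 FPKM at the high dose and 77.0, 77.3 and 79.3 FPKM in the normal control. Gstk1 was lower at each step from the low to the high dose, with no overlap.

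On the FPKM scale Gstm1 was highest in the obese control. Under TPM Gstm1 was 0.014 higher in log2 at the high dose than in the obese control, a difference not called. It had 667, 676 and 675 FPKM with orlistat, 955, 972 and 973 FPKM in the obese control, 799, 793 and 812 FPKM at the low dose, 815, 799 and 794 FPKM at the medium dose, 873, 853 and 860.0 FPKM at the high dose and 876, 882 and 867 FPKM in the normal control. The low and medium dose overlap, as do the high dose and the normal control. Gstm3l, a second mu gene, had 5.90, 5.55 and 6.48 FPKM with orlistat, 6.94, 9.56 and 8.67 FPKM in the obese control, 6.78, 6.26 and 6.31 FPKM at the low dose, 4.69, 6.93 and 4.82 FPKM at the medium dose, 7.45, 6.66 and 6.98 FPKM at the high dose and 3.16, 4.53 and 4.33 FPKM in the normal control. It rests on only 54 to 148 reads per library. Group means of Gstm4 stayed between 20.9 and 25.9 FPKM and those of Gstm2 between 219.9 and 279.7 FPKM.

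In the alpha class, whose members reduce lipid peroxides, Gsta2 was higher at 1 dose: it had 28.3, 23.8 and 24.4 FPKM at the low dose, 44.5, 43.8 and 42.7 FPKM at the medium dose and 21.4, 29.2 and 28.2 FPKM at the high dose. It had 26.1, 31.7 and 23.2 FPKM with orlistat, 28.8, 29.2 and 27.2 FPKM in the obese control and 32.4, 40.6 and 31.8 FPKM in the normal control. The medium dose lies above every other library. Gsta5 had 256, 257 and 268 FPKM with orlistat, 324, 281 and 335 FPKM in the obese control, 316, 319 and 330.2 FPKM at the low dose, 432, 399 and 423 FPKM at the medium dose, 395, 366 and 374 FPKM at the high dose and 445, 456 and 430.2 FPKM in the normal control. Gsta3 had 2.21, 2.06 and 2.14 FPKM with orlistat, 3.60, 3.77 and 3.43 FPKM in the obese control, 4.47, 4.03 and 5.23 FPKM at the low dose, 4.59, 4.31 and 4.14 FPKM at the medium dose, 3.61, 4.15 and 5.04 FPKM at the high dose and 3.45, 3.15 and 2.42 FPKM in the normal control, on 47 to 157 reads per library. Gsta4, which conjugates aldehydes from lipid peroxidation, kept group means of 67.6 to 74.2 FPKM, and Gsta6 of 4.99 to 6.11 FPKM. Among the other classes Gsto1, an omega form that reduces dehydroascorbate, had 65.6, 64.4 and 68.5 FPKM with orlistat, 60.5, 59.6 and 64.0 FPKM in the obese control, 79.0, 77.9 and 73.6 FPKM at the low dose, 76.1, 72.1 and 69.4 FPKM at the medium dose, 71.0, 72.6 and 68.6 FPKM at the high dose and 73.4, 76.4 and 77.7 FPKM in the normal control. Gstp1, the pi form that marks early tumour foci in rat liver, had its highest group mean, 20.1 FPKM, at the medium dose and its lowest, 12.6 FPKM, in the normal control. Gstt2 spread widely within groups, with 23.8, 13.4 and 14.1 FPKM with orlistat, 34.6, 28.1 and 20.9 FPKM in the obese control and 43.3, 19.3 and 42.8 FPKM in the normal control. It had 43.2, 30.7 and 17.7 FPKM at the low dose, 34.1, 14.7 and 16.4 FPKM at the medium dose and 28.9, 23.6 and 19.1 FPKM at the high dose. In every group the first library was the highest, so this spread goes partly with the replicate number.

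**Figure D3:**
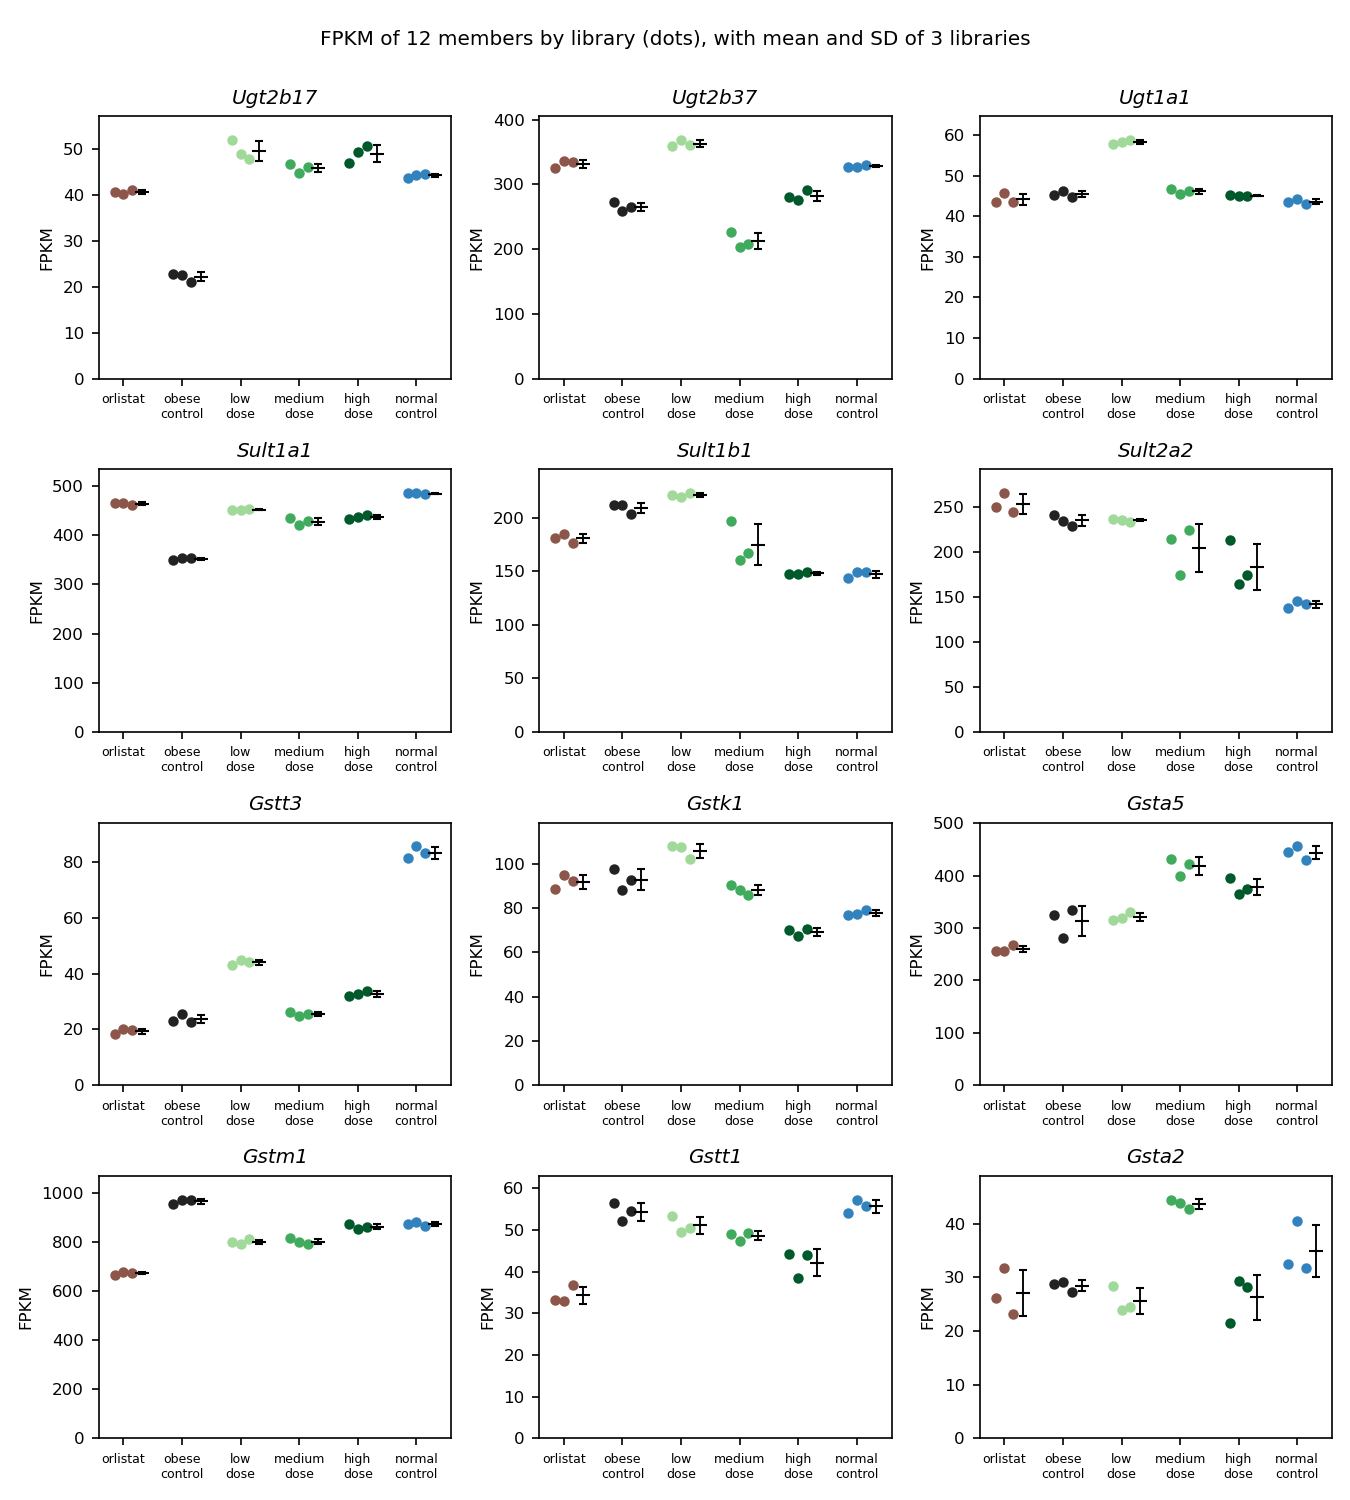
FPKM of 12 members in each library (dots), with the mean and SD of 3 libraries beside them; groups run from orlistat and the obese control over the 3 doses to the normal control, and axes start at 0. Ugt2b17 is lowest in the 3 obese control libraries (21.1 to 22.8 FPKM), Gstt3 highest in the normal control (81.4 to 85.7 FPKM), and Ugt1a1 and Gsta2 stand out at the low and the medium dose.

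Groups were compared on log2(FPKM + 1) with limma, and a member is called when its p-value, adjusted by Benjamini-Hochberg over 11945 genes, is under 0.05. Differences are given as log2 of the first named group minus the second, with the standard error of the fit, and understate the change of low genes. All 4 treatment comparisons use the same 3 obese control libraries, which also enter the comparison with the normal control, so they are not independent of each other.

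The first comparison asked how conjugation genes of the obese control differ from those of the normal control. Ugt2b genes, Sult1a1 and Gstt3 were lower in the obese control, and Sult2a2, Sult1b1, Sult1c2a and Gstm3l higher. Of the 28 members 9 rose (32.1%), against 26.7% of all genes tested, and 10 fell (35.7%), against 28.4%, so neither share is far from the background. Among 5 Ugt genes 4 fell and Ugt1a1 rose, with a median log2 difference of -0.30. Among 7 Sult genes 4 rose and 2 fell, with a median of 0.45, and among 16 Gst genes 4 rose and 4 fell, with a median of -0.033. The median of all genes tested was -0.00027. Gstt3 fell by 1.77 ± 0.042 on the log2 scale (adjusted p = 1.33e-14), the largest difference of any member in any of the 6 pairwise comparisons, and its mean was 0.284 times that of the normal control. Ugt2b17 fell by 0.97 ± 0.036 (adjusted p = 3.49e-12), Ugt2a3 by 0.32 ± 0.053, Ugt2b37 by 0.30 ± 0.033 and Ugt2b35 by 0.15 ± 0.029. Sult1a1 fell by 0.46 ± 0.014, while Sult2a2 rose by 0.73 ± 0.087, Sult1c2 by 0.59 ± 0.16, Sult1b1 by 0.50 ± 0.051 and Sult1c2a by 0.45 ± 0.046. Sult1c3, Gsto1, Gstz1 and Gsta5 also fell, by 0.27, 0.30, 0.28 and 0.51. Gstm3l rose by 0.91 ± 0.13, and Gstk1, Gstm4 and Gstm1 by 0.25, 0.16 and 0.14. Sult1e1 did not pass, at -0.024 ± 0.040 (adjusted p = 0.639), nor did Gstt1 at -0.034 ± 0.053 (adjusted p = 0.611).

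All 7 Kupffer cell markers rose in the same comparison, with summed levels of 231 to 239 FPKM in the obese control and 136 to 139 FPKM in the normal control. Markers of the zone around the central vein summed to 937 to 957 FPKM in the obese control and 1176 to 1191 FPKM in the normal control, with 2 of 5 lower. The part of either in the differences above was not tested. Under TPM 6 members rose and 15 fell, beside 16.5% and 38.3% of all genes. Sult1e1 and Gstt1 were then called lower, at -0.15 and -0.16 (adjusted p = 0.000388 and 0.0290), as were Gsta2 and Gsta4, at -0.41 and -0.15. Ugt2b35 came to -0.27 and Gstk1 to 0.13. The calls of Gstm1 and Gstm4 were then lost, at 0.020 (adjusted p = 0.395) and 0.042 (adjusted p = 0.287), and Ugt1a1 turned to -0.065. The call of Ugt1a1, 0.057 ± 0.023 (adjusted p = 0.0485), was also lost without obese control replicate 1 or 2 (adjusted p = 0.0691 and 0.176) or normal control replicate 1 or 3 (adjusted p = 0.105 and 0.142). Sult1c2 came to 0.95 with a pseudocount of 0.1 and to 1.05 in a test of the recovered reads.

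Orlistat against the obese control asked what the positive control did. Ugt2b17, Ugt2a3, Ugt2b37 and Sult1a1 were higher with orlistat, and 7 Gst genes, led by Gstt1, Gsta3 and Gstm1, were lower. Of the 28 members 8 rose (28.6%), against 26.2% of all genes, and 9 fell (32.1%), against 25.6%. Among 5 Ugt genes 3 rose, with a median log2 difference of 0.32. Among 7 Sult genes 2 rose and 2 fell, with a median of -0.050, and among 16 Gst genes 3 rose and 7 fell, with a median of -0.19, against -0.0078 for all genes. Ugt2b17 rose by 0.85 ± 0.036 (adjusted p = 3.40e-11), Ugt2a3 by 0.55 ± 0.053, Ugt2b37 by 0.32 ± 0.033, Sult1a1 by 0.40 ± 0.014, Sult1e1 by 0.20 ± 0.040, Gstp1 by 0.30 ± 0.087, Gstz1 by 0.19 ± 0.025 and Gsto1 by 0.11 ± 0.040. Gstt1 fell by 0.65 ± 0.053 (adjusted p = 6.38e-08), Gsta3 by 0.55 ± 0.10, Gstm1 by 0.52 ± 0.015, Gstm3l by 0.42 ± 0.13, Gstt3 by 0.28 ± 0.042 and Gsta5 by 0.26 ± 0.052. Sult1b1, Sult1c2a and Gstm4 fell by 0.21, 0.17 and 0.16. Gstt2, at -0.69 ± 0.38, did not pass (adjusted p = 0.143; with the replicate number as a block it did, at adjusted p = 0.0376), and Gstk1 was at -0.013 ± 0.037 (adjusted p = 0.784).

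Of the 7 Kupffer cell markers 1 rose and 1 fell with orlistat, with sums of 241 to 260.1 FPKM in the orlistat libraries and 231 to 239 FPKM in the obese control. The 5 markers around the central vein summed to 1611 to 1633 FPKM with orlistat and 937 to 957 FPKM in the obese control, with 3 higher and 1 lower. The part of these in the differences above was not tested. Under TPM 14 members rose and 4 fell, beside 41.8% and 13.1% of all genes, and with quantile normalization 11 rose and 6 fell, beside 27.3% and 23.9%. Gsto1 and Gstz1 came to 0.28 and 0.36 under TPM and to 0.25 and 0.34 with quantile normalization. Under TPM Ugt2b37, Sult1e1 and Gstp1 came to 0.49, 0.37 and 0.47 and Gstt3 to -0.12, while Ugt2b35, Sult2a2 and Gstk1 were called higher, at 0.17, 0.28 and 0.16. The falls of Sult1b1, Sult1c2a, Gsta5 and Gstm3l were lost under TPM, at -0.040, -0.0089, -0.093 and -0.29 (adjusted p = 0.429, 0.870, 0.156 and 0.109), and that of Gstm4 came to 0.0014. The call of Gstp1 was lost without orlistat replicate 3, at 0.18 (adjusted p = 0.0536). That of Gstm3l was lost without orlistat replicate 2 or obese control replicate 2 (adjusted p = 0.0516 and 0.0706), and that of Gsto1 without orlistat replicate 1 or 3 or obese control replicate 1 or 2 (adjusted p = 0.0582, 0.140, 0.0970 and 0.127).

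At the low dose of plantain all 5 Ugt genes rose over the obese control, with Sult1a1, Sult1c2a, Gstt3, Gsto1, Gstk1 and Gstz1. Of the 28 members 11 rose (39.3%), against 18.3% of all genes, and 3 fell (10.7%), against 14.8%. The Ugt median was 0.36, the median of 7 Sult genes, of which 2 rose and 1 fell, was 0.081, and that of 16 Gst genes, of which 4 rose and 2 fell, was 0.064, beside 0.010 for all genes. Ugt2b17 rose by 1.12 ± 0.036 (adjusted p = 3.76e-12), a mean 2.23 times that of the obese control. Ugt2b37 rose by 0.45 ± 0.033, Ugt2a3 by 0.36 ± 0.053, Ugt1a1 by 0.35 ± 0.023 and Ugt2b35 by 0.23 ± 0.029. Gstt3 rose by 0.87 ± 0.042 (adjusted p = 3.62e-10), Sult1a1 by 0.36 ± 0.014, Gsto1 by 0.32 ± 0.040, Sult1c2a by 0.27 ± 0.046, Gstk1 by 0.19 ± 0.037 and Gstz1 by 0.12 ± 0.025. Gstm1 fell by 0.27 ± 0.015 (adjusted p = 1.45e-09), Gstm4 by 0.11 ± 0.030 and Sult1e1 by 0.11 ± 0.040. Sult1b1, Sult2a2 and Gsta5 did not pass, at 0.081, 0.0017 and 0.043.

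At the low dose 6 of 7 Kupffer cell markers rose, to sums of 295 to 304 FPKM against 231 to 239 FPKM in the obese control, and 2 of 5 central vein markers rose and 1 fell, with sums of 1206 to 1228 FPKM against 937 to 957 FPKM. Their part in the differences above was not tested. Under TPM 15 members rose and 1 fell, beside 22.4% and 10.9% of all genes. Sult1b1, Gsta3, Gsta4 and Gstp1 were then called higher, at 0.12, 0.33, 0.10 and 0.26, and Gstm4 (-0.073, adjusted p = 0.0979) and Sult1e1 (-0.068, adjusted p = 0.0853) were lost. The call of Sult1e1 (adjusted p = 0.0478) was also lost without any 1 of the 3 low dose libraries (adjusted p = 0.169, 0.0544 and 0.0752 without replicates 1, 2 and 3) or of the obese control libraries (adjusted p = 0.0793, 0.142 and 0.0696).

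At the medium dose Ugt2b17 rose again, while Ugt2a3, Ugt2b37 and Ugt2b35 fell, and Gsta2, Gstp1 and Gsta5 rose. Of the 28 members 8 rose (28.6%), against 21.8% of all genes, and 10 fell (35.7%), against 20.1%. Among 5 Ugt genes 1 rose and 3 fell, with a median of -0.088. Among 7 Sult genes 2 rose and 3 fell, with a median of -0.16, and among 16 Gst genes 5 rose and 4 fell, with a median of 0.051, beside 0.0016 for all genes. Ugt2b17 rose by 1.02 ± 0.036 (adjusted p = 7.04e-12), Gsta2 by 0.60 ± 0.12 (adjusted p = 0.000908), Gstp1 by 0.45 ± 0.087, Gsta5 by 0.42 ± 0.052, Sult1a1 by 0.28 ± 0.014, Gsto1 by 0.24 ± 0.040, Sult1e1 by 0.12 ± 0.040 and Gstz1 by 0.078 ± 0.025. Ugt2a3 fell by 0.41 ± 0.053, Ugt2b37 by 0.32 ± 0.033, Gstm3l by 0.54 ± 0.13, Gstm4 by 0.30 ± 0.030, Sult1c2a by 0.29 ± 0.046, Gstm1 by 0.27 ± 0.015 and Sult1b1 by 0.26 ± 0.051. Sult1c3, Gstt1 and Ugt2b35 fell by 0.16, 0.16 and 0.088. Gstt3 did not pass, at 0.10 ± 0.042 (adjusted p = 0.0636), nor Ugt1a1 at 0.021 ± 0.023 (adjusted p = 0.497).

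At the medium dose 6 of 7 Kupffer cell markers fell, to sums of 196 to 199.8 FPKM against 231 to 239 FPKM in the obese control, and central vein markers summed to 1027 to 1091 FPKM against 937 to 957 FPKM, with 1 higher and 2 lower. Their part in the differences above was not tested. Under TPM 12 members rose and 7 fell, beside 31.4% and 12.1% of all genes, and with quantile normalization 11 rose and 7 fell, beside 22.3% and 19.3%. Gstt3 passed under TPM (0.20, adjusted p = 0.000414), with quantile normalization (0.13, adjusted p = 0.0199) and without obese control replicate 2 (0.15, adjusted p = 0.00797). Ugt1a1 passed under TPM (0.11, adjusted p = 0.000258) and with quantile normalization (0.073, adjusted p = 0.0165). Gstz1 came to 0.17 and 0.13, and under TPM Sult1e1 to 0.21, Sult1b1 to -0.17 and Gstm1 to -0.17. Ugt2b35 turned to 0.0062 and 0.052, and the falls of Sult1c3 and Gstt1 were lost under TPM, at -0.067 and -0.065 (adjusted p = 0.184 and 0.392). Without medium dose replicate 1 the call of Sult1e1 (0.052, adjusted p = 0.107) and that of Gstz1 (0.055, adjusted p = 0.0933) were lost. Without other single libraries 4 calls were lost: Ugt2b35 without medium dose replicate 2 or 3 or obese control replicate 1 (adjusted p = 0.0808, 0.107 and 0.0905), Gstt1 without medium dose replicate 2 or obese control replicate 1 or 3 (adjusted p = 0.0867, 0.106 and 0.0625), Sult1e1 without obese control replicate 1 or 3 (adjusted p = 0.0746 and 0.0818) and Gstz1 without obese control replicate 2 or 3 (adjusted p = 0.0810 and 0.0553).

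At the high dose Ugt2b17, Gstt3, Gstp1, Sult1a1 and Gsta5 rose over the obese control, and Sult1b1, Gstk1, Sult2a2 and Gstt1 fell. Of the 28 members 8 rose (28.6%), against 26.6% of all genes, and 7 fell (25.0%), against 25.3%, shares near the background. Among 5 Ugt genes 3 rose, with a median of 0.085. Among 7 Sult genes 1 rose and 2 fell, with a median of 0.047, and among 16 Gst genes 4 rose and 5 fell, with a median of -0.023, beside -0.0022 for all genes. Ugt2b17 rose by 1.11 ± 0.036 (adjusted p = 1.86e-12), Gstt3 by 0.45 ± 0.042, Gstp1 by 0.39 ± 0.087, Sult1a1 by 0.31 ± 0.014, Gsta5 by 0.27 ± 0.052, Gsto1 by 0.20 ± 0.040, Ugt2b37 by 0.088 ± 0.033 and Ugt2b35 by 0.085 ± 0.029. Sult1b1 fell by 0.50 ± 0.051 (adjusted p = 9.67e-07), Gstk1 by 0.42 ± 0.037, Sult2a2 by 0.37 ± 0.087, Gstt1 by 0.36 ± 0.053, Gstm4 by 0.21 ± 0.030, Gstm1 by 0.17 ± 0.015 and Gsta4 by 0.072 ± 0.027. Ugt1a1 did not pass, at -0.011 ± 0.023 (adjusted p = 0.722), nor Gsta2 at -0.12 ± 0.12 (adjusted p = 0.432).

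At the high dose 6 of 7 Kupffer cell markers fell, to sums of 195 to 201 FPKM against 231 to 239 FPKM in the obese control, and 3 of 5 central vein markers rose and 1 fell, with sums of 1228 to 1232 FPKM against 937 to 957 FPKM. Their part in the differences above was not tested. Under TPM 18 members rose and 3 fell, beside 43.3% and 12.4% of all genes, and with quantile normalization 11 rose and 6 fell, beside 27.5% and 24.0%. Ugt2b37 and Ugt2b35 came to 0.27 and 0.26 under TPM and to 0.22 and 0.23 with quantile normalization. Under TPM Sult1a1, Gsta5 and Gsto1 came to 0.49, 0.45 and 0.38 and Sult1b1, Gstk1 and Gstt1 to -0.32, -0.24 and -0.19, and Ugt1a1 was called higher, at 0.17 (adjusted p = 4.19e-06). Under TPM Gsta4 turned to 0.11 and Gstm1 to 0.014, and the falls of Sult2a2 (-0.19, adjusted p = 0.0570) and Gstm4 (-0.041, adjusted p = 0.303) were lost. The call of Ugt2b35 was lost without high dose replicate 2 or 3 or obese control replicate 2 or 3 (adjusted p = 0.0574, 0.0801, 0.0609 and 0.0743). That of Ugt2b37 was lost without high dose replicate 1 or 3 or obese control replicate 2 or 3 (adjusted p = 0.0573, 0.149, 0.126 and 0.0776), and that of Gsta4 without high dose replicate 1 or 3 or obese control replicate 3 (adjusted p = 0.132, 0.0608 and 0.147).

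**Figure D4:**
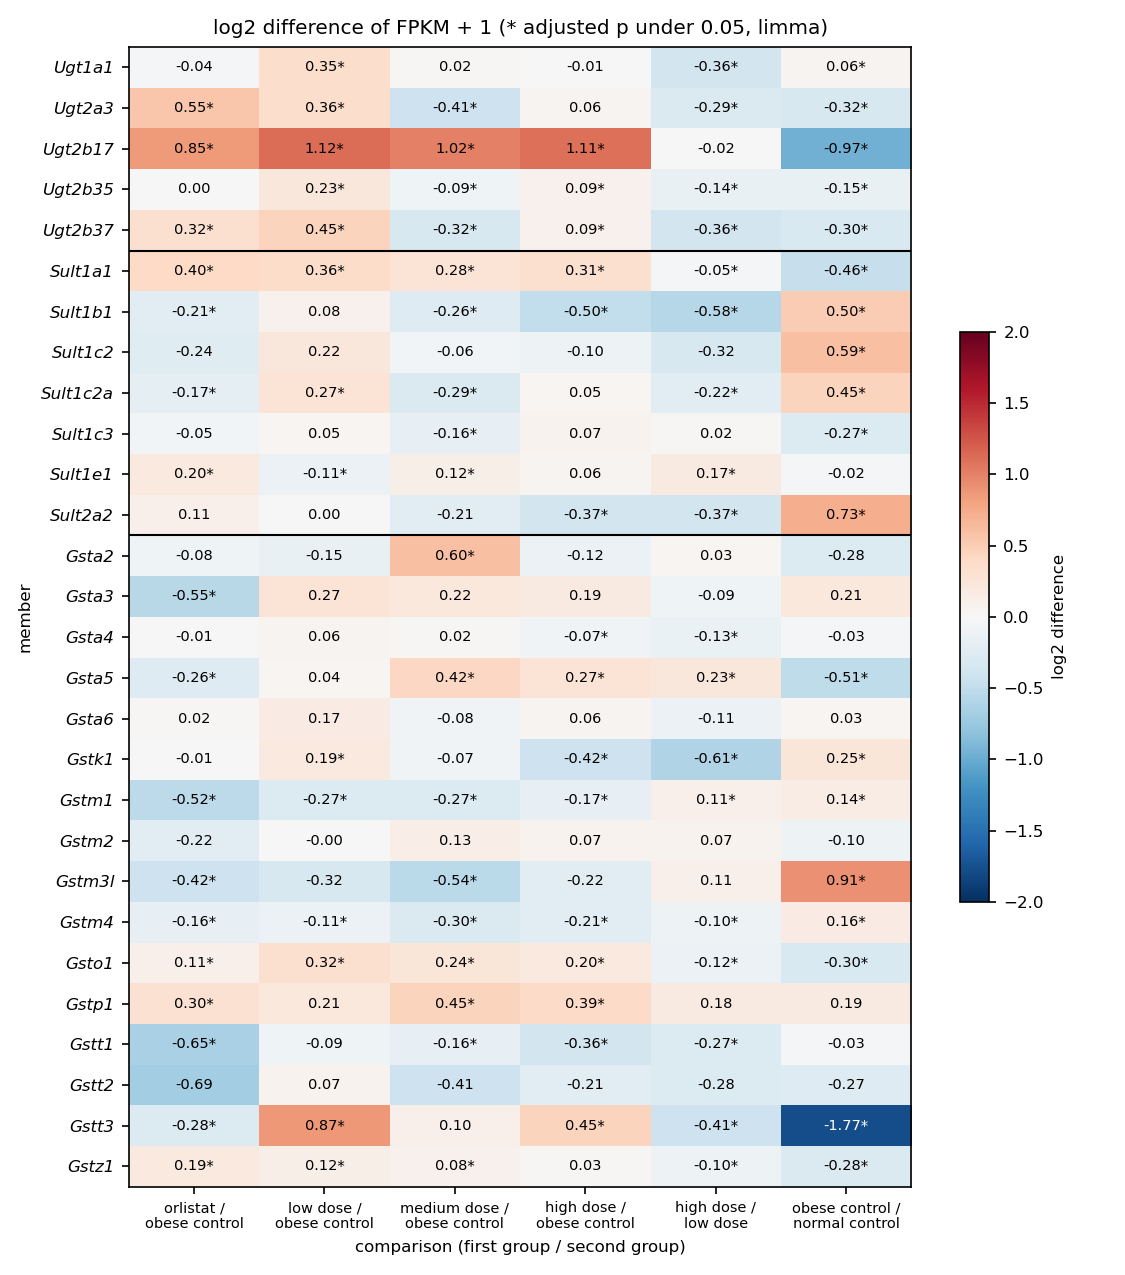
Log2 differences of FPKM + 1 for the 28 members (rows, by family) in the 6 pairwise comparisons (columns), with red for higher and blue for lower in the first group; stars mark limma adjusted p-values under 0.05. Ugt2b17 is at 0.85 to 1.12 in the 4 treatment columns, and Gstt3 is at -1.77 in the obese against the normal control.

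The doses were also compared with each other. Of the 28 members 20 differed among the 3 doses by limma's F-test (71.4%), against 38.4% of all genes: all 5 Ugt genes, 6 of 7 Sult genes and 9 of 16 Gst genes. Under TPM it was 17 of 28 (60.7%), against 45.3% of all genes, and with quantile normalization 18 (64.3%), against 37.6%. For 8 of these 20 the mean of the medium dose lay between those of the low and the high dose, and for 12 it was the highest or the lowest of the 3. Gstk1 had means of 106, 88.3 and 69.3 FPKM at the low, medium and high dose (adjusted p = 2.11e-08), and Sult1b1 of 222, 175 and 148 FPKM (adjusted p = 1.40e-06). Ugt2b37 had 363, 212 and 282 FPKM (adjusted p = 4.02e-10), Gstt3 had 44.1, 25.5 and 32.8 FPKM (adjusted p = 6.11e-09) and Gsta2 had 25.5, 43.7 and 26.3 FPKM (adjusted p = 0.000185), with the medium dose at one end. Ugt2b17 had 49.5, 45.8 and 49.0 FPKM, just under the threshold (adjusted p = 0.0496).

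In the high against the low dose 3 of the 28 members rose (10.7%), against 16.2% of all genes, and 15 fell (53.6%), against 16.4%. Among 5 Ugt genes 4 fell, with a median of -0.29. Among 7 Sult genes 1 rose and 4 fell, with a median of -0.22, and among 16 Gst genes 2 rose and 7 fell, with a median of -0.099, beside -0.0083 for all genes. Gstk1 fell by 0.61 ± 0.037 (adjusted p = 9.23e-09), Sult1b1 by 0.58 ± 0.051, Gstt3 by 0.41 ± 0.042, Sult2a2 by 0.37 ± 0.087, Ugt1a1 by 0.36 ± 0.023, Ugt2b37 by 0.36 ± 0.033 and Ugt2a3 by 0.29 ± 0.053. Gstt1, Sult1c2a, Ugt2b35, Gsta4, Gsto1, Gstm4, Gstz1 and Sult1a1 fell by 0.27, 0.22, 0.14, 0.13, 0.12, 0.099, 0.099 and 0.047. Gsta5 rose by 0.23 ± 0.052, Sult1e1 by 0.17 ± 0.040 and Gstm1 by 0.11 ± 0.015. Ugt2b17 did not pass, at -0.015 ± 0.036 (adjusted p = 0.787). All 7 Kupffer cell markers fell, to sums of 195 to 201 FPKM at the high dose against 295 to 304 FPKM at the low dose, and their part in these differences was not tested. Under TPM 7 members rose and 7 fell, beside 33.5% and 6.92% of all genes, and with quantile normalization 4 rose and 10 fell, beside 17.7% and 13.5%. Under TPM Ugt2b17 was called higher, at 0.12 (adjusted p = 0.0222), Ugt1a1, Ugt2a3, Ugt2b37 and Sult2a2 came to -0.23, -0.19, -0.23 and -0.23, and Sult1e1, Gsta5 and Gstm1 to 0.31, 0.37 and 0.24. Sult1a1 turned to 0.089 and 0.081, Gsta4, Gstm4, Gsto1 and Gstz1 came to 0.0021, 0.032, 0.017 and 0.036 under TPM, and Ugt2b35, Sult1c2a and Gstt1 came to -0.0048, -0.088 and -0.14 and were lost. Calls lost without single libraries were those of Sult1a1 (without high dose replicate 1 or low dose replicate 3, adjusted p = 0.0791 and 0.0570), Gstm4 (without high dose replicate 1 or low dose replicate 2 or 3, adjusted p = 0.0895, 0.0501 and 0.0683) and Gsto1 (without high dose replicate 1 or 3 or low dose replicate 1 or 2, adjusted p = 0.0678, 0.127, 0.123 and 0.101).

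Markers of other liver cells and zones were also read. The 4 endothelial markers summed to 53.6 to 56.7 FPKM with orlistat, 39.8 to 42.7 FPKM in the obese control, 53.9 to 55.1, 54.5 to 55.4 and 63.2 to 64.0 FPKM at the low, medium and high dose and 29.8 to 31.6 FPKM in the normal control. The 5 stellate cell markers summed to 57.0 to 57.6 FPKM with orlistat, 49.1 to 51.2 FPKM in the obese control, 37.8 to 39.8, 40.4 to 42.7 and 46.1 to 47.5 FPKM at the 3 doses and 40.8 to 42.3 FPKM in the normal control. Endothelial sums are thus lower in the obese control than in all 4 treated groups, and lowest in the normal control. With orlistat 3 of the 4 endothelial markers were called higher and 1 lower against the obese control. The 4 markers of the zone around the portal vein summed to 484 to 490.0 FPKM with orlistat, 280.2 to 285 FPKM in the obese control, 283 to 287, 318 to 323 and 381 to 387 FPKM at the 3 doses and 438 to 444 FPKM in the normal control. Red cell genes summed to 273 to 378 FPKM with orlistat, 363 to 437 FPKM in the obese control, 247 to 287, 279 to 354 and 266 to 322 FPKM at the 3 doses and 196 to 209.6 FPKM in the normal control. Some sums hide calls in both directions. In the obese against the normal control 2 portal markers were called higher and 2 lower, and 2 stellate markers higher and 1 lower. Against the obese control, portal calls were 3 higher and 1 lower with orlistat. At the 3 doses they were 1 and 2, 2 and 1 and 2 and 1. Stellate calls were 3 and 0 with orlistat and 0 and 5, 1 and 3 and 1 and 2 at the doses. Red cell calls were 1 and 1, then 0 and 2, 2 and 2 and 1 and 2. The part of these cells and zones in the members' differences was not tested.

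Across the 6 pairwise comparisons, Ugt2b37, Sult1a1, Gstm1, Gstm4 and Gsto1 were called in all 6, and Gsta6, Gstm2 and Gstt2 in none. At an unadjusted p under 0.05, Gsta6 and Gstm2 passed in 1 comparison each and Gstt2 in 0. Under TPM, Gsta6 and Gstm2 passed at the high dose against the obese control, at 0.22 and 0.25 (adjusted p = 0.0308 and 0.0419). Gstt2 had a standard error of 0.38, against 0.042 for Gstt3.

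Genes around the members were also read, from 7 lists with 59 genes, of which 50 were tested. By genes tested, the lists held supply of UDP-glucuronate (3), sulfate handling (7) and glutathione supply and recycling (8). The others were membrane and other glutathione transferases (4), other conjugation (9), transport (8) and regulators (11). In the obese against the normal control 16 of the 50 were called higher (32.0%) and 22 lower (44.0%), beside 26.7% and 28.4% of all genes. With orlistat 17 (34.0%) were higher and 19 (38.0%) lower, beside 26.2% and 25.6%. At the low dose 20 (40.0%) were higher and 11 (22.0%) lower, beside 18.3% and 14.8%, at the medium dose 19 (38.0%) and 14 (28.0%), beside 21.8% and 20.1%, and at the high dose 18 (36.0%) and 18 (36.0%), beside 26.6% and 25.3%. In the high against the low dose 16 (32.0%) were higher and 11 (22.0%) lower, beside 16.2% and 16.4%. These lists were not recomputed under TPM, so small differences among them may hang on the scaling.

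The 3 genes that supply UDP-glucuronate were called in all 5 comparisons that include the obese control, in both directions. Ugp2, which makes UDP-glucose, had 223 ± 2.97 FPKM with orlistat, 138 ± 1.34 FPKM in the obese control, 176 ± 0.363, 191 ± 9.74 and 259 ± 2.67 FPKM at the low, medium and high dose and 389 ± 4.16 FPKM in normal control libraries (means with SDs, n = 3). It fell by 1.48 ± 0.026 in the obese against the normal control (adjusted p = 5.55e-16) and rose by 0.68 with orlistat and by 0.34, 0.46 and 0.90 at the low, medium and high dose against the obese control. Slc35d1, which carries UDP-glucuronate into the endoplasmic reticulum, fell by 0.75 ± 0.038 in the obese against the normal control and rose by 0.50 with orlistat and by 0.28, 0.45 and 0.64 at the 3 doses. Ugdh, which oxidises UDP-glucose to UDP-glucuronate, fell by 0.44 with orlistat and by 0.28, 0.62 and 0.32 at the low, medium and high dose. The 3 donor genes thus did not move together.

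The sulfate list held Papss1, Papss2, Slc26a1, Bpnt1, Impad1, Sts and Sumf1, of which only Papss1 and Papss2 make PAPS. Of these 7 genes 2 rose and 2 fell in the obese against the normal control. There Papss2, the PAPS synthase of liver, had 35.2 ± 1.05 FPKM in the obese control and 41.4 ± 0.778 FPKM in the normal control. Against the obese control 2 of the 7 rose and 1 fell with orlistat, and 1 rose and 3 fell at the low dose. At the medium dose 3 rose and 2 fell, and at the high dose 2 rose and 2 fell. In glutathione supply, 3 of 8 genes rose and 4 fell in the obese against the normal control. Gclm, the modifier subunit of glutamate-cysteine ligase, had 85.5 ± 1.45 FPKM with orlistat, 55.7 ± 1.20 FPKM in the obese control, 69.4 ± 1.58, 88.5 ± 2.46 and 115 ± 0.114 FPKM at the low, medium and high dose and 128 ± 0.990 FPKM in the normal control. It fell by 1.19 ± 0.024 in the obese against the normal control (adjusted p = 2.19e-15) and rose by 1.03 ± 0.024 at the high dose against the obese control (adjusted p = 1.28e-13). Cth, which makes cysteine, rose by 1.22 ± 0.13 in the obese against the normal control and fell by 1.11 ± 0.13 in the high against the low dose.

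Membrane-bound Mgst1 had 1678 ± 50.5 FPKM with orlistat, 2227 ± 73.9 FPKM in the obese control, 2056 ± 22.1, 1871 ± 122 and 1680.1 ± 6.30 FPKM at the low, medium and high dose and 1829 ± 13.7 FPKM in the normal control, more than any member. It fell by 0.41 ± 0.035 with orlistat and by 0.12, 0.25 and 0.41 at the low, medium and high dose. The list of other conjugation also held Ephx1 and Nqo1. Of its 9 genes tested, 2 rose and 4 fell in the obese against the normal control. Among them the glycine conjugating Glyat fell by 0.95 ± 0.024. The transporter list held Abcc1 to Abcc6 and Abcg2, and also the uptake carriers Slco1a1, Slco1a4 and Slco1b2. Of its 10 genes 8 were tested, and 3 rose and 4 fell in the same comparison. Abcc2, the canalicular pump for conjugates, fell by 0.21 with orlistat and by 0.59, 0.67 and 0.29 at the low, medium and high dose against the obese control. Of the 11 regulators, 3 rose and 6 fell in the obese against the normal control. Arnt, the partner of the aryl hydrocarbon receptor, fell by 1.12 ± 0.045 there and rose by 0.99 with orlistat and by 0.51, 0.88 and 0.98 at the low, medium and high dose. Nr1i3, the receptor CAR, fell by 0.64 ± 0.058 with orlistat (adjusted p = 1.96e-07) and was at 0.015 ± 0.058 in the obese against the normal control (adjusted p = 0.838).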

How the data were processed

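Per the labels' protocols, frozen liver gave 1 μg of RNA per sample for Illumina libraries made with a NEBNext kit. CASAVA 1.7, Bowtie 0.12.2 and mm8, a mouse build, stand in the submitters' processing notes. The rat build, annotation and strand setting are not given in the sources used. The authors deposited FPKM per gene for all 18 libraries. Multiplied by gene length and each library's scale, 100% of the values gave whole reads within a tolerance of 0.001.

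The 11945 of 33657 genes that reached 1 FPKM in 3 or more libraries were tested with limma 3.58.1 in R 4.3.3, two-sided, on log2(FPKM + 1), in 1 fit of the 6 groups with a mean-variance trend. P-values were adjusted by Benjamini-Hochberg over all of them in each of 7 comparisons. The script was tested on simulated counts. An exact permutation test of 3 against 3 libraries cannot go below p = 0.1 and was not used. Over all genes tested, same-numbered libraries did not deviate together (r from -0.092 to 0.061), so no pairing was used in the main fit. Such an r cannot tell whether single genes, such as Gstt2, follow the replicate number. The alternatives were a pseudocount of 0.1, no filter, TPM, quantile normalization, the recovered reads with voom, no trend, a replicate block, only the groups compared, and leaving out each library. Promoters came from RefSeq (GRCr8) and were searched with Python 3.11.15.

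The members and gene lists were chosen with earlier results of these data known. All expressed members are named, and library values are given for the highest member of each family and for those with the largest called differences without overlap between groups. Library values of Gsta5 and Gstt2 fall outside this rule and were added after they were seen.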

Additional observations from a re-analysis of the deposited data

How the results depend on the processing

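The count of members called stayed within 1.5 times of the main count under every alternative run, in all 7 comparisons. Of 101 calls in the 6 pairwise comparisons, 70 kept direction and threshold under every alternative and 31 did not: 3 of 19 in the obese against the normal control, 7 of 17 for orlistat, 2 of 14, 5 of 18 and 6 of 15 for the low, medium and high dose, and 8 of 18 for the high against the low dose. The recovered reads gave 20, 17, 15, 19, 15 and 18 calls in the same order, and in the obese against the normal control 6818 genes in all, against 6578. No call turned its direction outside TPM and quantile normalization. Not all of the turned differences listed next were calls in the main fit. Without a call there were Ugt1a1, Sult1c3, Gsta4 and Gstk1 with orlistat. The same holds for Ugt1a1 at the high dose and Ugt2b17 in the high against the low dose. Under TPM, Ugt1a1 came to -0.065 in the obese against the normal control (adjusted p = 0.0125). Against the obese control, TPM turned Ugt1a1, Sult1c3, Gsta4, Gstk1 and Gstm4 to 0.13, 0.12, 0.16, 0.16 and 0.0014 with orlistat, Ugt2b35 to 0.0062 at the medium dose, and Ugt1a1, Gsta4 and Gstm1 to 0.17, 0.11 and 0.014 at the high dose. For the high against the low dose it turned Ugt2b17, Sult1a1, Gsta4, Gstm4, Gsto1 and Gstz1 to 0.12, 0.089, 0.0021, 0.032, 0.017 and 0.036. Quantile normalization turned Gsta4 to 0.10 with orlistat and 0.0075 at the high dose, Ugt2b35 to 0.052 at the medium dose and Sult1a1 to 0.081 in the high against the low dose. The cause was not tested. The replicate block gave 18, 17, 13, 18, 15 and 17 members in the pairwise comparisons and 19 in the test of the 3 doses, against 19, 17, 14, 18, 15, 18 and 20 without it. It lost Ugt1a1 in the obese against the normal control (adjusted p = 0.0562), Gsto1 with orlistat (0.0517) and in the high against the low dose (0.0524), and Sult1e1 at the low dose (0.0676), and gained Gstt2 with orlistat (0.0376). Depth limits Sult1c2, Gsta3 and Gstm3l most, and the labels do not tell technical spread from spread between animals.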

Other observations

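The microsomal glutathione transferases Mgst2 and Mgst3, which belong to another protein family than the members, were expressed as well. Mgst2 had 61.8 ± 6.45 FPKM with orlistat, 67.9 ± 2.13 FPKM in the obese control, 64.9 ± 5.35, 69.8 ± 2.67 and 60.4 ± 1.97 FPKM at the low, medium and high dose and 75.1 ± 4.28 FPKM in the normal control (mean ± SD, n = 3). Mgst3 had 92.8 ± 13.7 FPKM with orlistat, 95.3 ± 15.6 FPKM in the obese control, 113 ± 7.67, 99.01 ± 13.6 and 96.2 ± 12.6 FPKM at the 3 doses and 108 ± 17.6 FPKM in the normal control.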
